A study of Mus musculus with 12 samples.

Results

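The effect of losing Mettl5 was compared between 2 tissues of the same mice, as the change from WT to KO in liver minus the change from WT to KO in brain. All 12 libraries of the series entered the comparison (12 of 12), 6 from liver and 6 from brain. They came from 6 mice, named A to F in the labels, and each mouse gave 1 liver and 1 brain library, so that the tissues were compared within a mouse. The KO liver and KO brain groups held mice A, C and F, and the WT liver and WT brain groups held mice B, D and E, with 3 libraries a group. Per the study's methods, exon 2 of Mettl5 was flanked by loxP sites in hybrid embryonic stem cells and removed by a Cre transgene under the CMV promoter, so the deletion was not limited to liver or brain. The labels give no age, sex or litter, and they call the controls WT, so WT stands here for the libraries so labelled. The study's text, however, describes the controls of this RNA sequencing as heterozygous mice in 3 pairs with knockouts, and which of the 2 genotypes the WT libraries hold was not settled by the labels.

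METTL5 is a methyltransferase that, bound to its partner TRMT112, adds a methyl group to an adenosine of 18S rRNA, in the decoding part of the small ribosomal subunit. The same ribosome is built in hepatocytes and in neurons, but the transcripts it meets differ: liver makes plasma proteins, lipids and bile in quantity, whereas brain holds long-lived neurons and glia. Genes that respond alike in both tissues and genes that respond in opposite ways are therefore described separately. A difference below 0 means that KO was lower relative to WT in liver than it was in brain.

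The largest family among the genes with a called difference codes for zinc finger proteins (gene symbols Zfp and a number). Such a protein is a row of small zinc-binding fingers that touch DNA, joined by a conserved linker, and many members of the family silence transposable elements. In mouse they lie in clusters of young, closely similar copies. The coding windows below run from 1 linker up to the next, in the GENCODE transcripts of the mm10 build, and show the repeat unit for Zfp943 and Zfp942, which had the smallest p-values of the family, and for Zfp62 from another chromosome. The capitals mark the linker motif: codons for threonine, glycine, glutamate or aspartate, lysine or asparagine, and the first bases of a proline codon, in a row and in frame on the coding strand.
Zfp943: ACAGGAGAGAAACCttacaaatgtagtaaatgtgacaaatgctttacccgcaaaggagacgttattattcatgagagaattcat
Zfp942: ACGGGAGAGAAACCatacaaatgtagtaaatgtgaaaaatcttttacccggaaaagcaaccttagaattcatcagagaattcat
Zfp62: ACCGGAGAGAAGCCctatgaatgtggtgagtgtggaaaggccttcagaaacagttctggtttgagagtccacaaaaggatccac
The window of Zfp943 lies in exon 4 of 4 at chr17:21992541-21992624 on the plus strand, that of Zfp942 in exon 6 of 6 at chr17:21928780-21928863 on the minus strand, and that of Zfp62 in exon 4 of 4 at chr11:49215774-49215857 on the plus strand. Zfp943 and Zfp942 share 71 of these 84 bases, and Zfp943 and Zfp62 share 47. The motif occurs in frame in 412 of 14915 protein-coding genes tested (2.76%), among them 264 of 356 Zfp genes (74.2%).

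Library totals ran from 14403309 to 21623180 counts. The tissue labels were checked with 15 hepatocyte and 15 neuron markers. Summed over the list, hepatocyte markers were at 94440 to 121400 CPM in the liver libraries and at 100.5 to 314.0 CPM in the brain libraries, and neuron markers were at 4956 to 6430 CPM in brain and at 14.84 to 31.53 CPM in liver. CPM are counts scaled to a common library size, after TMM over all 12 libraries. Mouse E in WT and mouse F in KO had few Y-linked counts in both tissues (116 to 336, against 2183 to 3445 in the other mice). Their Xist counts were 9446 to 19028, against 0 to 19 in the other mice. By these counts each genotype held 1 female mouse. Summed over 21 genes, cerebellum markers were at 2305 to 3164 CPM in WT brains and 874 to 1676 CPM in KO brains, without overlap. Summed over 25 annotated entries of 24 symbols, olfactory bulb markers were at 505 to 674 CPM in WT brains and 588 to 729 CPM in KO brains, with overlap. The part of these regional markers in the brain effects below was not tested. In these bulk samples, fewer cells of a type and less RNA per cell cannot be told apart.

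Mettl5 itself was lower in KO in both tissues. In liver it was at 18.95, 10.1 and 10.4 CPM in WT mice B, D and E and 4.93, 4.64 and 5.22 CPM in KO mice A, C and F, and in brain it was at 7.12, 4.65 and 3.95 CPM in WT and 2.61, 3.12 and 3.0 CPM in KO. All KO libraries lay below all WT libraries in each tissue. KO minus WT on the log2 scale was -1.44 (SE 0.27) for liver against -0.84 (SE 0.27) for brain, with edgeR adjusted p-values of 0.383 and 0.373. The liver effect was called with DESeq2 (adjusted p 0.00193), and in edgeR with no filter on low counts (4.29e-06), with a covariate for Y-linked transcripts (0.0710) and without mouse D (0.0848), and the brain effect with no filter (0.0936). Under all 13 alternatives of each tissue the effect was negative, from -1.59 to -1.10 (liver) and -1.04 to -0.55 (brain). The difference between tissues was -0.55 (SE 0.33, edgeR adjusted p 0.685), so it did not pass the threshold. Over 14 alternatives the difference ran from -0.64 to -0.18, the latter with an offset for GC content and length, and 0 of them called it. The gene lies on chromosome 2 from 69871198 to 69885615 (mm10) on the minus strand. Counts cover all exons, so they do not report exon 2 alone.

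The comparison asks which genes respond to the loss of Mettl5 differently in liver and in brain. Of 18944 genes tested, 68 had a called difference (0.359%, Benjamini-Hochberg adjusted p under 0.1 in the quasi-likelihood test of edgeR with mouse as a block). In 64 of them (0.338% of genes tested) the liver effect lay below the brain effect, and in 4 (0.0211%) it lay above. Of the 67 called genes that passed the filter on low counts in each tissue, 62 were lower in KO liver but higher in KO brain (26.4% of all genes so tested). Another 4 were higher in liver and lower in brain (32.1%), and 1, Ighm, had a negative value in both (23.2%). A test on the liver minus brain difference favours opposite signs, so the selection touches these counts too. Signs were counted whatever their size. The unadjusted p was under 0.05 in each tissue for 53 of the 68 (1.2% of all genes with opposite signs, 0.167% with equal signs). The genes with a negative difference had median log2 fold changes of -1.29 (liver) and 0.76 (brain). The 68 were selected by a test on the liver minus brain differences of the mice, so it adds nothing to the calls that these differences did not overlap between KO and WT mice in any of the 68 (16.2% of all genes tested had no overlap). Liver libraries of KO and WT did not overlap for 47 of the 68 (11.3% of all genes tested) and brain libraries for 54 (15.7%), counts that the same selection touches.

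The count of 68 depended on the mice and on the fit. Leaving out mouse B, E or F gave 0 calls (1967, 1388 and 1239 genes at an unadjusted p under 0.05, smallest edgeR adjusted p 0.190, 0.156 and 0.122) and leaving out mouse A gave 26, of which 23 were among the 68. Leaving out C or D gave 61 and 71, of which 35 and 51 were among the 68. Without the block, 0 genes were called (2004 at an unadjusted p under 0.05, smallest edgeR adjusted p 0.102), and with an offset for the GC content and length of each gene, 0 were called as well (1558 at an unadjusted p under 0.05, smallest edgeR adjusted p 0.101). With the offset the edgeR adjusted p-values of the 68 ran from 0.101 to 0.314. All 68 kept the sign of their difference and an unadjusted p under 0.05. Their selection on the same libraries favours this, so it adds nothing to the calls. The median over the 64 negative genes moved from -2.04 to -1.61. DESeq2 called 190 genes, which included all 68.

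Within each tissue alone, edgeR called 0 of 14075 genes in liver (1032 at an unadjusted p under 0.05, and 171 calls with DESeq2, with 87 edgeR calls without mouse D, 82 with the Y-linked covariate, 443 with no filter, 3 in 1 fit of 12 libraries and 2 without mouse C) and 11 of 17188 in brain (269 with DESeq2, 92 with the GC and length offset in edgeR, 1000 with no filter, and 2 to 23 when each mouse was left out). The unadjusted p was under 0.05 for 8.36% of genes for the difference between tissues, for 7.33% in liver and for 11% in brain. Among the 12574 genes tested in each tissue, 58.5% had opposite signs in liver and brain whatever their p. The unadjusted p was under 0.05 in both tissues with opposite signs for 151 genes (1.2%) and with equal signs for 21 (0.167%). Of the 151, 131 were lower in KO liver but higher in KO brain and 20 the reverse. Leaving out mouse A, D or E reduced the 151 to 64, 86 and 89.

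**Figure D1:**
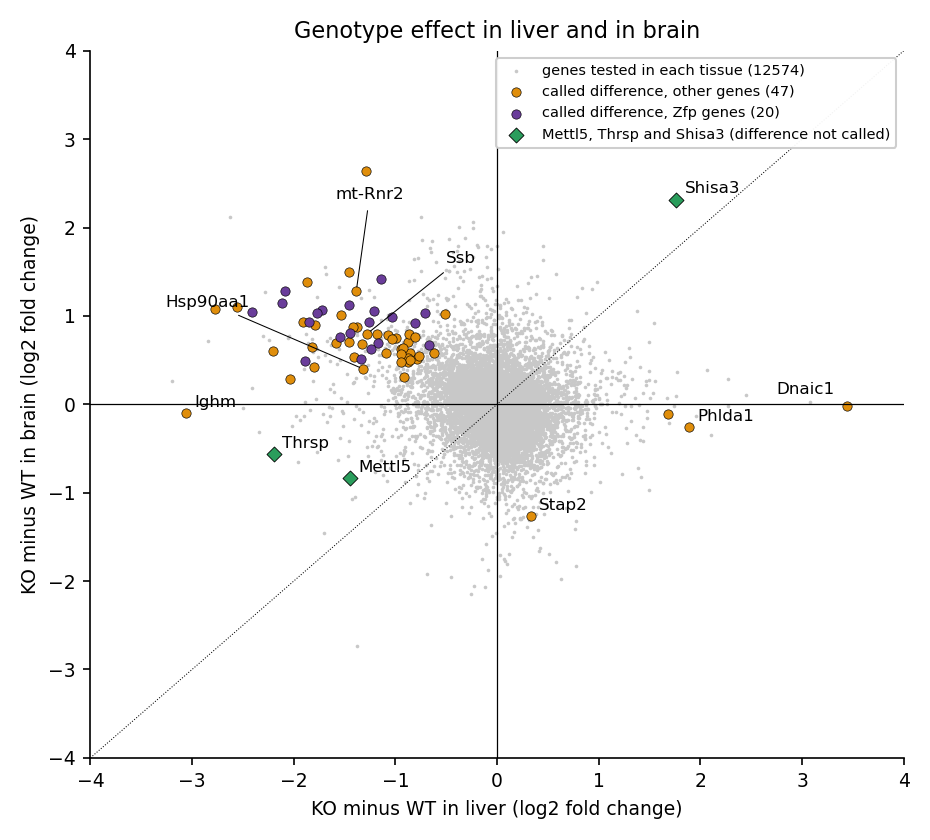
Each point is a gene tested in each tissue, with its log2 fold change KO minus WT in liver on the horizontal axis and in brain on the vertical axis, and the dotted line marks equal effects. The called Zfp genes (purple, 20) and most other called genes (orange, 47) fill the upper left, lower in KO liver but higher in KO brain, while Mettl5, Thrsp and Shisa3 (green) lie in the quadrants of equal sign.

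Ssb had the smallest p of all genes. It codes for the La protein, which binds the ends of new RNA polymerase III transcripts such as tRNA precursors, and its gene (chromosome 2 from 69861562 to 69871846, plus strand) overlaps the end of Mettl5 on the other strand. In liver Ssb was at 84.2, 34.1 and 67.8 CPM in WT mice B, D and E and 30.4, 22.3 and 25.6 CPM in KO mice A, C and F. In brain it was at 59.6, 36.2 and 59.4 CPM in WT and 116, 78.7 and 74.5 CPM in KO. All KO libraries lay below WT in liver and above WT in brain. Its log2 effects were -1.28 (SE 0.31) for liver against 0.80 (SE 0.24) for brain, a difference of -1.97 (SE 0.23, edgeR adjusted p 0.0339). With the GC and length offset the difference was -1.37. Counting used strand, so reads of Ssb and Mettl5 were kept apart as far as the library marked strand.

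Zinc finger genes made up 20 of the 68 called genes. Of 308 tested in each tissue, 194 were lower in KO liver, 196 were higher in KO brain and 228 had opposite signs (74%, against 58.5% of all genes). Their median effects were -0.12 (liver) and 0.11 (brain), where the medians over all genes were 0.0026 and -0.036. The difference was called for 20 of the 360 Zfp genes tested, all 20 negative, beside 0.338% of all genes. The median difference over the list was -0.22, against 0.081 over all genes, and it ran from -0.27 to -0.16 when each mouse was left out, while the liver median ran from -0.17 to -0.077 and the brain median from 0.054 to 0.18. With the GC and length offset it was -0.11, against 0.056 over all genes.

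Zfp genes were then split by their number of linkers, which 2 of the 308 lacked for want of a coding sequence in the annotation used. The 81 Zfp genes without the motif had a median difference of 0.17, the 114 with 1 to 5 copies had -0.12, and the 111 with 6 or more had -0.74. In the last group 89 of 111 were lower in KO liver (median -0.51) and 92 were higher in KO brain (median 0.33). Of the 20 called Zfp genes, 14 belonged to that group, 4 had 1 to 5 copies and 2 had none. GC content was lower with more linkers, with a median of 51.2% without the motif, 45.5% and 40.8%. With the GC and length offset the medians of the 3 groups were 0.091, -0.02 and -0.47. The split by linkers was chosen after the values had been seen, and it is given as a description.

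Zfp943 and Zfp942 are neighbours on chromosome 17. Zfp943 in liver was at 15.9, 4.86 and 16.3 CPM in WT mice B, D and E and 5.40, 2.93 and 3.14 CPM in KO mice A, C and F, and in brain it was at 7.83, 4.53 and 8.62 CPM in WT and 17.6, 11.96 and 14.2 CPM in KO. The WT liver of mouse D, at 4.86 CPM, lay below 1 KO liver, whereas in brain the groups did not overlap. The difference was -2.67 (SE 0.34, edgeR adjusted p 0.0339) for Zfp943 and -2.67 (SE 0.35, edgeR adjusted p 0.0339) for Zfp942. Zfp62, on chromosome 11, was at 22.8, 13.7 and 26.4 CPM in WT and 18.2, 7.92 and 10.8 CPM in KO in liver. Zfp62 in brain was at 31.9, 15.4 and 33.4 CPM in WT and 63.9, 41.3 and 47.6 CPM in KO. KO and WT livers overlapped for Zfp62, KO brains lay above WT brains, and the difference was -1.77 (SE 0.24, edgeR adjusted p 0.0339). Zfp729b on chromosome 13 had the most negative difference of the 20, at -3.30, and Zfp638 had the least negative, at -1.31. Of the 20 genes, 9 lie on chromosome 17, where 45 Zfp genes were tested, and 3 on chromosome 13, where 34 were tested. Close copies share stretches of sequence, as in the windows above, so reads could be assigned to a wrong copy or left out, and the values of single copies are uncertain.

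Mitochondrial rRNA took a lower share of counts in KO liver but a higher one in KO brain. These are shares of counts in total RNA libraries, and the part of library preparation in them was not tested. The 2 rRNAs of the mitochondrial ribosome, mt-Rnr1 and mt-Rnr2, made up 10.7% to 16.9% of counts in WT liver and 7.36% to 8.66% in KO liver, without overlap. In brain they made up 17.7%, 7.63% and 11.7% in WT mice B, D and E and 31.6%, 21.4% and 22.1% in KO mice A, C and F, again without overlap. The share in liver minus that in brain was -17.1 ± 5.83 percentage points in KO and 2.39 ± 3.30 in WT (SD, n = 3 mice each, exact permutation test, two-sided, p 0.1, the smallest that 3 against 3 mice allow, and 0.2 after Benjamini-Hochberg adjustment over 3 composition measures).

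For mt-Rnr2 the log2 effects were -1.39 (SE 0.28) for liver against 1.28 (SE 0.38) for brain, a called difference of -2.59 (SE 0.43, edgeR adjusted p 0.0539). For mt-Rnr1 the values were -0.50 (SE 0.18) and 1.21 (SE 0.37), with a difference of -1.77 (SE 0.47, edgeR adjusted p 0.262) that was not called. The offset moved the differences to -1.85 and -0.98. The mRNAs of the mitochondrial genome, which code for subunits of the respiratory chain, had smaller values: all 8 tested in each tissue were negative in liver (median -0.12) and 7 were positive in brain (median 0.53), and 0 differences were called, beside 0.359% of all genes, with 2 of the 8 at an unadjusted p under 0.05 (8.36% of all genes). Without mouse A the liver median was -0.03 and the median difference -0.47, and the liver median was -0.22 without C and -0.21 without E. Their median difference of -0.73 became 0.0086 with the offset. Nuclear genes for the respiratory chain and for the mitochondrial ribosome had median differences of -0.0095 (78 genes) and 0.012 (77 genes), whose signs changed with the mouse left out (-0.13 to 0.10 and -0.074 to 0.11), and 0 of either list were called (0.359% of all genes were), with 0 of 80 and 3 of 77 at an unadjusted p under 0.05. Without any mitochondrial gene in the fit, 75 genes were called, 67 of them among the 68.

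**Figure D2:**
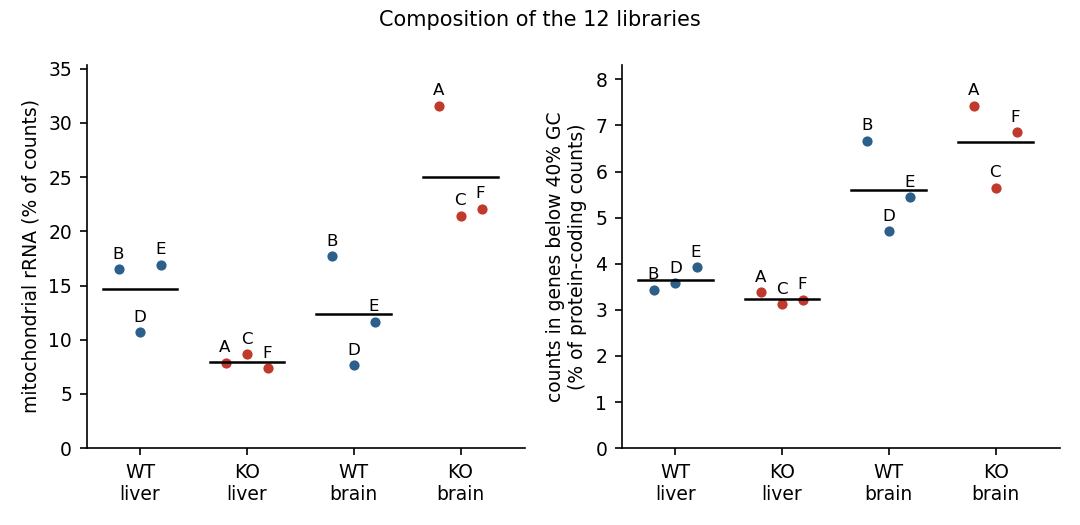
The left panel gives the share of counts on mt-Rnr1 and mt-Rnr2 in each library (percent), and the right panel the share of protein-coding counts in genes with a GC content below 40%, with mice by letter and a bar at the group mean (n = 3). KO livers lie below WT livers and KO brains above WT brains in the left panel, and in the right panel KO livers lie below WT livers while KO and WT brains overlap.

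Of 60 ribosome assembly factors, 45 had opposite signs (58.5% of all genes did) and 2 were called (0.359% of all genes were), both lower in KO liver but higher in KO brain. Mphosph10, a subunit of the small-subunit processome that shapes pre-18S rRNA, was at 21.5, 9.55 and 14.3 CPM in WT mice B, D and E and 7.40, 5.28 and 5.15 CPM in KO mice A, C and F in liver. In brain it was at 13.2, 10.02 and 14.6 CPM in WT and 29.99, 20.1 and 18.9 CPM in KO, so KO and WT did not overlap in either tissue. Its log2 fold changes of -1.38 (SE 0.30) and 0.87 (SE 0.22) gave a difference of -2.15 (SE 0.29, edgeR adjusted p 0.0339). Nol8, a nucleolar protein needed for ribosome assembly, was at 26.4, 10.7 and 21.1 CPM in WT and 12.6, 7.85 and 8.63 CPM in KO in liver. Nol8 in brain was at 17.9, 14.98 and 22.7 CPM in WT and 35.3, 25.8 and 31.4 CPM in KO, with a difference of -1.68 (SE 0.30, edgeR adjusted p 0.0730). Liver groups overlapped for Nol8 and brain groups did not. Npm1, the abundant nucleolar chaperone nucleophosmin, had effects of -0.69 and 0.46 and missed the threshold, at -1.09 (SE 0.21, edgeR adjusted p 0.104). The list as a whole did not share this direction: its medians were 0.047 in liver (0.0079 to 0.10 over the mice left out) and -0.016 in brain (-0.043 to 0.00099), and 7 members were negative and 7 positive among the 14 of 60 with an unadjusted p under 0.05 (8.36% of all genes).

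Translation factors gave 1 call among 65 tested, again beside 0.359% of all genes. Eif2s2 codes for the beta subunit of eIF2, the factor that brings the initiator tRNA to the ribosome. It was at 81.6, 60.02 and 68.3 CPM in WT and 47.3, 40.7 and 36.1 CPM in KO in liver. Eif2s2 in brain was at 40.3, 25.7 and 32.7 CPM in WT and 58.3, 38.3 and 44.01 CPM in KO, and its difference was -1.27 (SE 0.21, edgeR adjusted p 0.0549). KO livers lay below WT livers, while brain libraries overlapped. Eif2ak2, the double-stranded RNA kinase that phosphorylates eIF2, had effects of -0.70 and 0.42 and a difference of -1.08 (SE 0.24, edgeR adjusted p 0.164). The 22 genes of the list of rRNA methylation, which holds Mettl5, Trmt112 and the box C/D proteins, gave 0 calls, beside the same share, and 2 unadjusted p-values under 0.05 (8.36% of all genes), and Nop58, a core protein of box C/D particles, had the smallest, with a difference of -0.74 (SE 0.23, edgeR adjusted p 0.377). Among 20 factors of mRNA m6A, 0 were called and 0 had an unadjusted p under 0.05, beside the same shares of all genes.

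Of 27 heat shock genes, 2 had a called difference, both negative, beside 0.338% of all genes called in that direction. Hsp90aa1, the inducible cytosolic HSP90, was at 353, 210.2 and 192 CPM in WT mice B, D and E and 115, 117 and 77.3 CPM in KO mice A, C and F in liver. In brain it was at 699.8, 579 and 689.7 CPM in WT and 1010.5, 740.4 and 838 CPM in KO. KO livers lay below WT livers and KO brains above WT brains, with effects of -1.31 (SE 0.26) and 0.40 (SE 0.17) and a difference of -1.65 (SE 0.31, edgeR adjusted p 0.0902). Cacybp, which binds the Siah ubiquitin ligases and has an HSP90 co-chaperone domain, was at 47.1, 33.4 and 39.1 CPM in WT and 22.9, 18.9 and 15.5 CPM in KO in liver. Cacybp in brain was at 58.2, 37.1 and 42.1 CPM in WT and 81.2, 54.7 and 69.2 CPM in KO, with a difference of -1.65 (SE 0.23, edgeR adjusted p 0.0339). KO livers lay below WT livers for Cacybp, whereas brain groups overlapped. Hspa4l, an HSP110-type exchange factor, missed the threshold at -0.98 (SE 0.20, edgeR adjusted p 0.131). Over the list the median was -0.26 in liver, where 24 of 27 were negative, and -0.0046 in brain, where 14 were. The median difference of -0.10 ran from -0.27 to 0.0046 when each mouse was left out, and was positive without mouse A. The liver median ran from -0.41 to -0.15 and the brain median from -0.047 to 0.037.

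Cep83, Cep290, Gcc2 and Cops2 were also called and are described as single genes. Cep83, a protein of the appendages that dock a centriole to the membrane, was at 16.4, 8.12 and 18.4 CPM in WT and 9.02, 4.14 and 6.16 CPM in KO in liver. Cep83 in brain was at 25.9, 15.1 and 26.3 CPM in WT and 46.5, 35.6 and 34.7 CPM in KO, with a difference of -1.96 (SE 0.27, edgeR adjusted p 0.0339). Cep290, a protein of the ciliary transition zone, was at 12.2, 6.45 and 18.9 CPM in WT and 4.70, 3.14 and 4.88 CPM in KO in liver. Cep290 in brain was at 36.4, 21.4 and 29.4 CPM in WT and 58.8, 40.2 and 41.1 CPM in KO, with a difference of -2.15 (SE 0.34, edgeR adjusted p 0.0478). For both genes KO livers lay below WT livers and KO brains above WT brains, except that the KO liver of mouse A, at 9.02 CPM of Cep83, lay above the WT liver of mouse D. They were 2 of 33 Cep genes tested, beside 0.338% of all genes called in that direction, and 18 of 32 had opposite signs, a share near that of all genes. Gcc2, a golgin that tethers vesicles to the Golgi, was at 86.3, 29.9 and 79.8 CPM in WT and 26.4, 12.9 and 17.4 CPM in KO in liver. Gcc2 in brain was at 50.3, 34.9 and 54.1 CPM in WT and 89.3, 69.9 and 58.8 CPM in KO, with a difference of -2.36 (SE 0.31, edgeR adjusted p 0.0339). Cops2, a subunit of the COP9 signalosome that removes NEDD8 from cullin ligases, had effects of -0.998 (SE 0.22) for liver against 0.75 (SE 0.29) for brain, with a difference of -1.78 (SE 0.24, edgeR adjusted p 0.0339).

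Ighm and Meis2 are a blood cell and an olfactory bulb gene of the lists. Ighm, the constant part of the IgM heavy chain of B cells, was at 58.3, 172 and 27.01 CPM in WT mice B, D and E and 12.6, 10.8 and 8.16 CPM in KO mice A, C and F in liver. Ighm in brain was at 11.01, 13.2 and 7.35 CPM in WT and 11.2, 10.03 and 8.07 CPM in KO. The WT livers ranged widely, the KO livers lay below them, and the brain groups overlapped. The difference was -2.57 (SE 0.42, edgeR adjusted p 0.0484). Meis2, a homeobox factor of striatal and bulb neurons, was at 12.3, 11.5 and 15.5 CPM in WT and 10.2, 8.92 and 9.03 CPM in KO in liver. Meis2 in brain was at 64.7, 33.7 and 45.9 CPM in WT and 106, 104 and 81.4 CPM in KO, without overlap in either tissue and with a difference of -1.53 (SE 0.28, edgeR adjusted p 0.0788). Of the 24 olfactory bulb genes tested, Meis2 alone had a called difference, beside 0.359% of all genes. An unadjusted p under 0.05, in either direction, was found for 19 of the 24 in brain (11% of all genes there). For the difference it was found for 6 (8.36% of all genes), 1 higher and 5 lower. Reln, of the same list, had the other direction, with -0.79 in brain and 0.54 in liver (difference 1.34, SE 0.40, edgeR adjusted p 0.36). Of the 5 tested in each tissue, 3 were higher and 2 lower in KO brain. The 5 tested in each tissue had medians of 0.28 in liver and 0.52 in brain, and the liver median was 0.11, 0.10 and 0.13 without mouse B, C and D and 0.59 without E. The part of bulb content in the Meis2 result was not tested. Of the 13 blood cell markers tested Ighm alone was called, beside 0.359% of all genes, and the 8 tested in each tissue were all negative in liver (median -0.29) and 7 were negative in brain (median -0.22). Over the mice left out, the liver median ran from -0.70 to -0.12, and the brain median was 0.053 without mouse D. Igkc, the constant part of the kappa light chain, had a positive difference that was not called: it was at 11.8, 157 and 12.3 CPM in WT and 34.2, 11.7 and 25.6 CPM in KO in liver, where the groups overlapped, with a difference of 1.35 (SE 0.76, edgeR adjusted p 0.667). Summed over 19 genes, blood cell markers were at 243 to 564 CPM in WT livers and 152 to 309 CPM in KO livers. The part of blood cell content in the Ighm result was not tested.

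A higher effect in liver than in brain was called for 4 genes. Phlda1, a pleckstrin-homology protein induced by growth factors, was at 40.8, 60.2 and 38.6 CPM in WT mice B, D and E and 262, 137 and 128 CPM in KO mice A, C and F in liver. In brain it was at 14.3, 16.7 and 14.4 CPM in WT and 12.03, 13.8 and 12.1 CPM in KO. KO livers lay above WT livers, KO brains below WT brains, and the difference was 2.12 (SE 0.31, edgeR adjusted p 0.0439). Itpka, an inositol trisphosphate kinase of neurons, was at 0.915, 0.478 and 1.13 CPM in WT and 3.01, 1.93 and 3.48 CPM in KO in liver. Itpka in brain was at 41.8, 33.5 and 56.8 CPM in WT and 41.95, 39.1 and 40.8 CPM in KO, where KO lay within the range of WT. Its difference was 1.83 (SE 0.33, edgeR adjusted p 0.0730) and rests on low liver counts, at most 16 in WT and 52 in KO. Stap2, an adaptor of cytokine signalling, was at 22.7, 25.9 and 25.9 CPM in WT and 28.3, 29.7 and 37.6 CPM in KO in liver. Stap2 in brain was at 2.17, 3.14 and 2.77 CPM in WT and 0.637, 0.907 and 1.76 CPM in KO, and its difference of 1.68 (SE 0.32, edgeR adjusted p 0.0998) went with effects of 0.33 (SE 0.15) in liver and -1.27 (SE 0.39) in brain. Dnaic1, an axonemal dynein chain, had at most 4 counts in any WT liver and up to 29 in KO liver, so its difference of 3.53 (SE 0.68, edgeR adjusted p 0.0998) rests on low counts. The GC content of the 4 genes ran from 51.7% to 61.1%, all above the median of all genes tested.

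**Figure D3:**
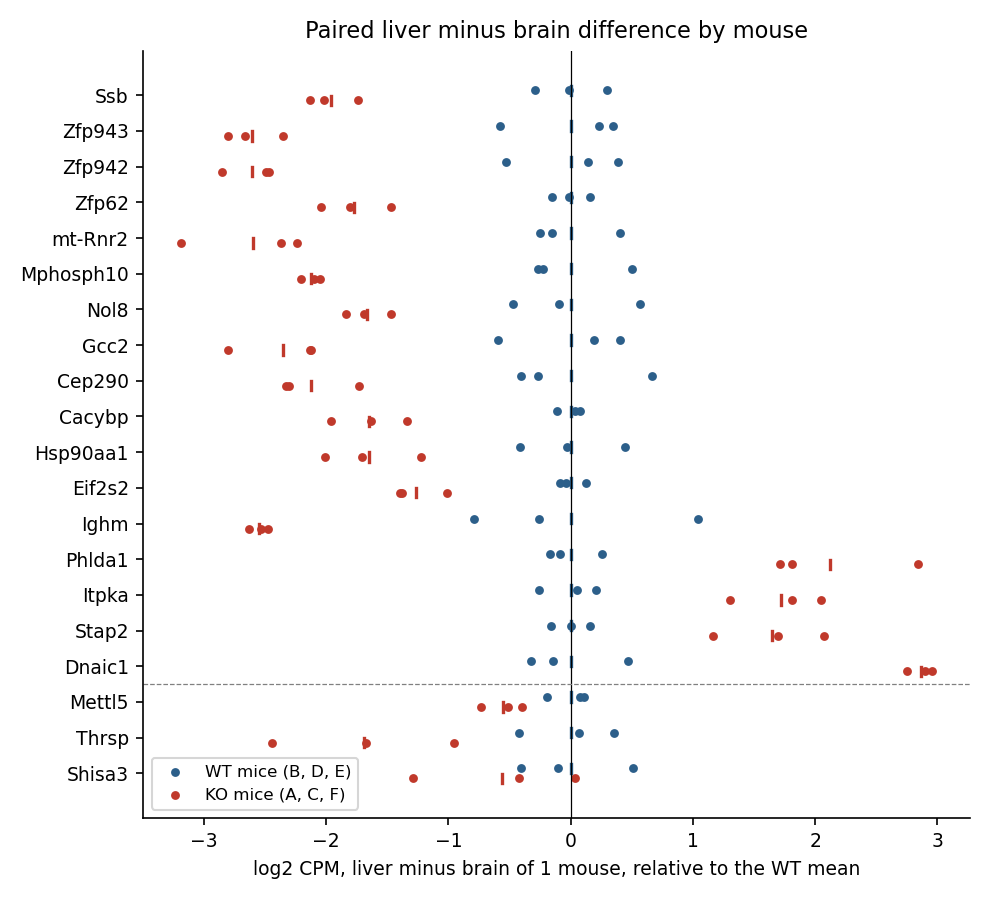
Points give, for each mouse, log2 CPM (prior count 2) in liver minus that in brain, relative to the mean of the 3 WT mice, with KO mice in red, WT mice in blue and a bar at the group mean. Above the dashed line stand genes with a called difference, in which KO and WT mice do not overlap. Below it stand Mettl5, Thrsp and Shisa3, which had the same sign in both tissues.

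The mean of the liver and the brain effect was tested as well, which 1 tissue alone can carry, so a call does not show an equal direction in both. Of 18944 genes, 3 were called (0.0158%, edgeR without a block for mouse, Benjamini-Hochberg): Thrsp lower, and Shisa3 and Omp higher. The count was 0 without mouse E or F, 1 without B or C, and 6 and 5 without A and D. Of the 3 genes, 0 were among the calls without B, 1 without C, 2 without A and 1 without D. DESeq2 gave 55 calls and voom with mouse as a block gave 5, and both included these 3 genes. Shisa3 and Omp belong to the list of olfactory bulb genes, whose summed level in WT and KO brains is given above. Of these genes 19 of 24 had an unadjusted p under 0.05 in brain, in either direction, beside 11% of all genes. The part of bulb content in these calls was not tested.

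Thrsp, the thyroid hormone responsive Spot 14 protein of fat synthesis, was at 509, 434 and 581 CPM in WT mice B, D and E and 69.7, 167 and 103 CPM in KO mice A, C and F in liver. In brain it was at 23.3, 27.9 and 21.7 CPM in WT and 18.2, 15.5 and 15.7 CPM in KO. KO libraries lay below WT libraries in both tissues, with effects of -2.20 (SE 0.31) and -0.56 (SE 0.15) and a mean effect of -1.37 (edgeR adjusted p 0.0403). The difference between tissues was -1.69 (SE 0.37, edgeR adjusted p 0.159) and was not called. Shisa3, an endoplasmic reticulum protein that damps Wnt and FGF signalling, was at 0.261, 0.239 and 0.496 CPM in WT and 1.46, 0.999 and 1.07 CPM in KO in liver. Shisa3 in brain was at 0.707, 0.835 and 0.751 CPM in WT and 2.99, 5.38 and 3.10 CPM in KO, without overlap in either tissue and with a mean effect of 2.05 (edgeR adjusted p 0.0403). In liver Shisa3 was at most at 0.496 CPM in WT and 1.46 CPM in KO, so its liver effect rests on low levels. Omp, the olfactory marker protein, was at 0.656, 0.517 and 0.870 CPM in WT and 6.05, 9.63 and 11.02 CPM in KO in brain. In liver it was at 0.458, 0.239 and 0.142 CPM in WT and 0.462, 0.642 and 0.401 CPM in KO, did not pass the filter there, and had at most 9 counts in any library, so its call rests on brain.

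Other genes were lower in KO in both tissues without overlap. G6pdx, the first enzyme of the pentose phosphate pathway and a source of NADPH, was at 14.8, 8.84 and 10.4 CPM in WT and 4.70, 5.14 and 5.89 CPM in KO in liver. G6pdx in brain was at 16.4, 23.4 and 17.2 CPM in WT and 10.9, 14.5 and 11.2 CPM in KO. Its effects were -1.14 (SE 0.24) and -0.63 (SE 0.19). Usp2, a deubiquitinase with a daily rhythm, had -1.18 (SE 0.36) and -0.49 (SE 0.17), Tob2, an antiproliferative partner of the CCR4-NOT deadenylase, had -0.41 (SE 0.12) and -0.96 (SE 0.22), and Rec8, a cohesin subunit of meiosis, had -1.70 (SE 0.44) and -1.45 (SE 0.44). None of the 4 had a called mean effect (edgeR adjusted p 0.222 for G6pdx and 0.334 for each of the others). Of the 21 genes with an unadjusted p under 0.05 in both tissues and equal signs, 16 were lower and 5 higher. Prkar2b, a regulatory subunit of protein kinase A, was among the 5, with 1.40 (SE 0.58) and 0.42 (SE 0.18). The count of 21 was 51 without mouse E, 44 without C and 13 without F.

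Lists of lipid synthesis and of daily rhythm had negative medians in both tissues. Of 26 lipid synthesis genes tested in each tissue, 25 were negative in liver (median -0.42) and 18 in brain (median -0.13), where 50.4% and 44.7% of all genes were positive in liver and in brain. The median difference was -0.21, and it ran from -0.51 to -0.02 when each mouse was left out, with the ends of the range set by mice D and B. With the GC and length offset it was -0.48, further from 0 than without. Elovl6, an elongase of long-chain fatty acids, was -1.78 in liver and 0.058 in brain (difference -1.73, SE 0.45, edgeR adjusted p 0.266), and Pnpla3, a lipase of lipid droplets, was -3.20 and 0.26 (difference -3.47, SE 0.80, edgeR adjusted p 0.186). Of 18 clock genes, 14 were negative in liver (median -0.50) and 16 in brain (median -0.19). Dbp, an output factor of the clock, had -2.34 in liver and -0.32 in brain, Per2, a repressor of the clock, had -1.19 and -0.36, and Arntl, the activator BMAL1, had 0.51 and -0.039. No difference of either list was called (0.359% of all genes were), with 5 of 27 and 3 of 20 unadjusted p-values under 0.05 (8.36% of all genes). Over the mice left out, the brain medians ran from -0.25 to -0.014 for lipid synthesis and from -0.29 to -0.091 for the clock. The labels give no time of collection.

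ER chaperones had a negative value in liver for 20 of 22 genes (median -0.35) and in brain for 15 (median -0.10). The liver median was -0.23, -0.15 and -0.21 without mouse B, D and F and -0.52 without E, and the brain median was -0.039 without D. Hsp90b1, the HSP90 of the endoplasmic reticulum, differed in sign, with -0.93 in liver and 0.40 in brain (difference -1.28, SE 0.30, edgeR adjusted p 0.205), as did Hspa5, its HSP70 (BiP), with -0.98 and 0.18. The list's median difference of -0.14 turned positive without mouse D or F (highest 0.064). Cytosolic ribosomal protein genes had positive medians in both tissues, 0.082 in liver and 0.19 in brain: 62 and 69 of 83 were positive. In liver the median ran from -0.018 to 0.20 when each mouse was left out, and in brain from 0.093 to 0.27. No difference was called among them, beside 0.359% of all genes, with 3 of 84 at an unadjusted p under 0.05, and their median difference of -0.062 changed sign without mouse A or D.

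Some lists were positive in liver and negative in brain. Their members are shared by several cell types or mark another tissue, so these are values of the dissected samples. Endothelial markers had medians of 0.10 in liver and -0.34 in brain, with 12 of 20 in that arrangement and a median difference of 0.45 (0.15 to 0.66 when each mouse was left out). With the GC and length offset the median difference was 0.27. The liver median was 0.05 and 0.039 without mouse D and F and 0.21 without E, and the brain median was -0.20 without D. Chromatin remodellers and lysine methylases, 68 genes, had medians of 0.062 and -0.12, and 50 had opposite signs, though not all in 1 direction: Atrx, the ATP-dependent remodeller, had -0.78 in liver and 0.39 in brain, and Chd7, the remodeller of CHARGE syndrome, had 0.072 and -1.38. The list's median difference of 0.23 became 0.072 with the GC and length offset, near the 0.056 of all genes. Without mouse A the medians were 0.0088 and -0.0085, and the median difference was 0.069. No member of either list was called, beside 0.359% of all genes, and 1 of 20 and 8 of 69 had an unadjusted p under 0.05 for the difference (8.36% of all genes).

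Of the lists described here, those of the cerebellum and the choroid plexus had the most positive median differences. All 5 cerebellum genes that passed the filter in each tissue were negative in KO brain (median -1.51), with a median of 0.10 in liver. The brain median was -0.89 without mouse D, the liver median ran from -0.035 to 0.24 over the mice left out, and the median difference of 2.02 was 0.74 without mouse A. Of all 21 tested in brain, 20 had an unadjusted p under 0.05 there (11% of all genes), and 6 had one for the difference (8.36% of all genes). Car8, a Purkinje cell protein related to carbonic anhydrases, had -1.70 in brain and 0.11 in liver (difference 2.03, SE 0.46, edgeR adjusted p 0.188). Choroid plexus genes were negative in brain for all 9 that passed the filter in each tissue (median -0.68) and had a median of 0.029 in liver (-0.053 to 0.11 over the mice left out). Their median difference of 0.83 ran from 0.66 to 0.92 when each mouse was left out. Summed, the 20 listed genes were at 487 to 704 CPM in WT brains and 297 to 365 CPM in KO brains. Ttr, the thyroxine carrier made by hepatocytes and by the choroid plexus, had -0.092 in liver and -0.97 in brain. Hepatocyte and plasma protein genes followed, with medians of 0.15 and 0.13 in liver and -0.42 and -0.47 in brain, where their levels were low. Over the mice left out the liver medians ran from 0.022 to 0.19 and from 0.0043 to 0.22. Without mouse D the brain medians were -0.081 and -0.034, and the median differences went from 0.58 to 0.23 and from 0.49 to 0.26. How much of each brain region a library held was not measured, and its part in these values was not tested.

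**Figure D4:**
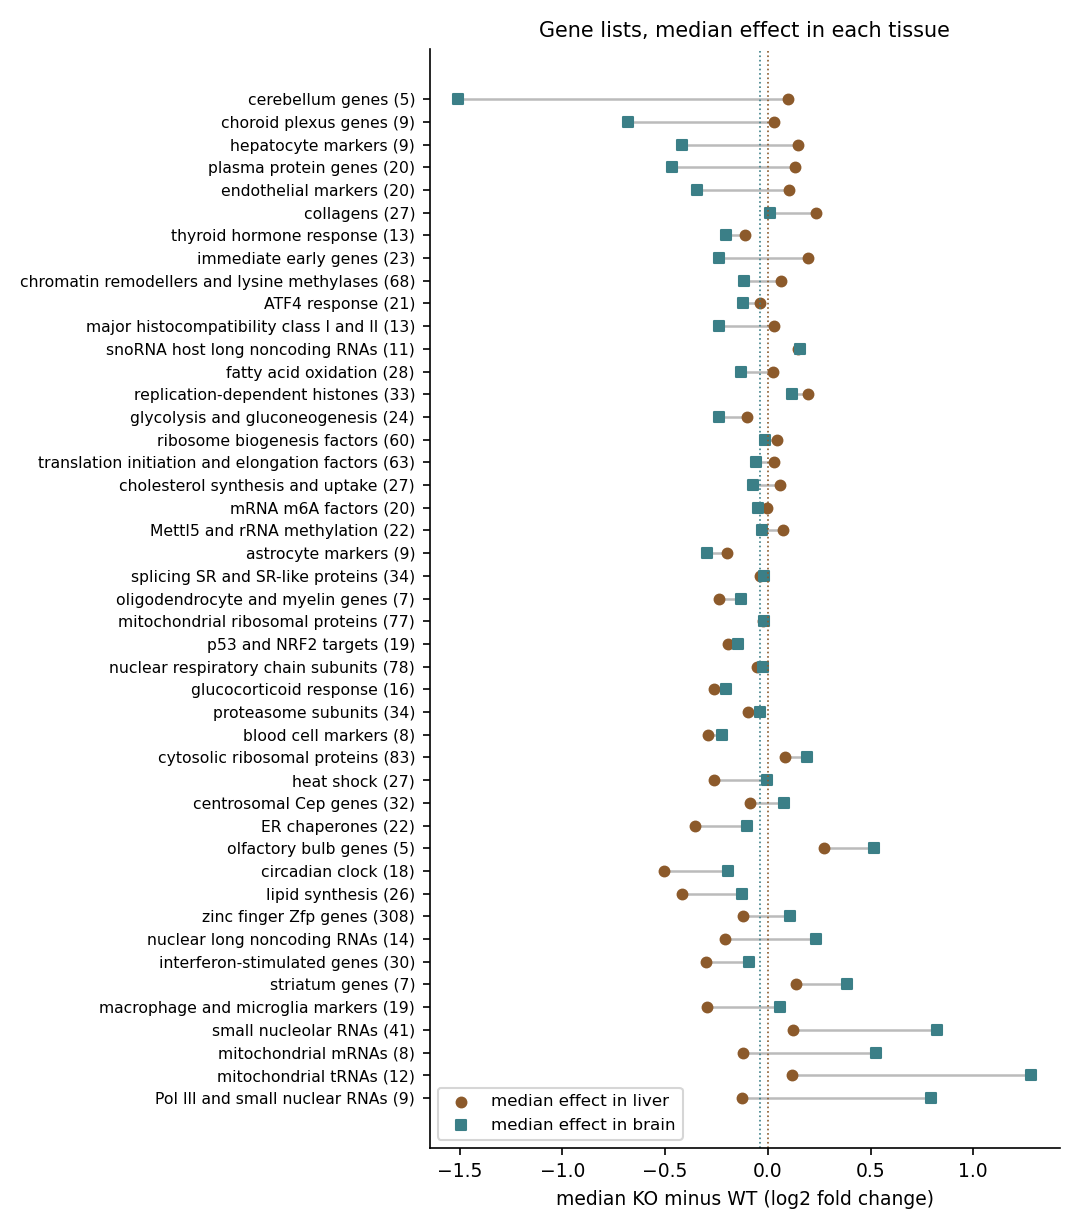
For each gene list with at least 5 genes tested in each tissue (number in brackets), the round point gives the median log2 fold change KO minus WT in liver and the square that in brain, ordered by the median difference. Dotted lines mark the medians of all 12574 genes. Cerebellum and choroid plexus genes stand at the top with low brain values, zinc finger genes and mitochondrial mRNAs show opposite signs in the lower part, and clock and lipid synthesis genes are below 0 in both tissues.

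Base composition moved with the direction of the effect. Median GC content was 39.4% over the 68 called genes and 48.7% over all genes tested, and 63 of 68 lay below the latter. In the decile of genes with the lowest GC content (up to 40.7%), the median effect was -0.14 in liver and 0.21 in brain, and 41 of the called genes were in it. In the decile with the highest (from 57.5%), it was 0.11 in liver and -0.19 in brain, with 2 called genes. Across the genes tested in each tissue, GC content had a Pearson correlation of 0.24 with the liver effect and -0.385 with the brain effect, as a description over genes, which are not independent. The liver minus brain difference between the lowest and the highest decile was -0.95, -0.50 and -0.96 in KO mice A, C and F and -0.64, 0.28 and 0.083 in WT mice B, D and E. Mouse B thus lay below KO mouse C, and the groups overlapped.

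The mean GC content of protein-coding counts, in liver minus brain, was 0.840 ± 0.589 percentage points in KO and -0.003 ± 0.683 in WT (SD, n = 3 mice each, exact permutation test, two-sided, p 0.2, and 0.2 after adjustment over the 3 composition measures). The share of protein-coding counts in genes below 40% GC, in liver minus brain, was -3.40 ± 0.784 percentage points in KO and -1.96 ± 1.116 in WT (SD, n = 3 mice each, same exact permutation test, p 0.2 and adjusted p 0.2). In that share KO livers lay below WT livers without overlap. With the GC and length offset, the median difference in the lowest decile went from -0.29 to 0.17, and in the highest from 0.36 to 0.036. Median effects of opposite sign were thus largest at the ends of the GC range. With the offset in the fit no difference was called, at a smallest edgeR adjusted p of 0.101 against a threshold of 0.1. The 68 had edgeR adjusted p-values of 0.101 to 0.314 in that fit. All 68 kept their sign and an unadjusted p under 0.05, which their selection on the same libraries favours. The median over the 64 negative genes went from -2.04 to -1.61. Whether the base composition of the transcripts or another feature of these genes goes with the genotype effect cannot be told apart from these values.

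**Figure D5:**
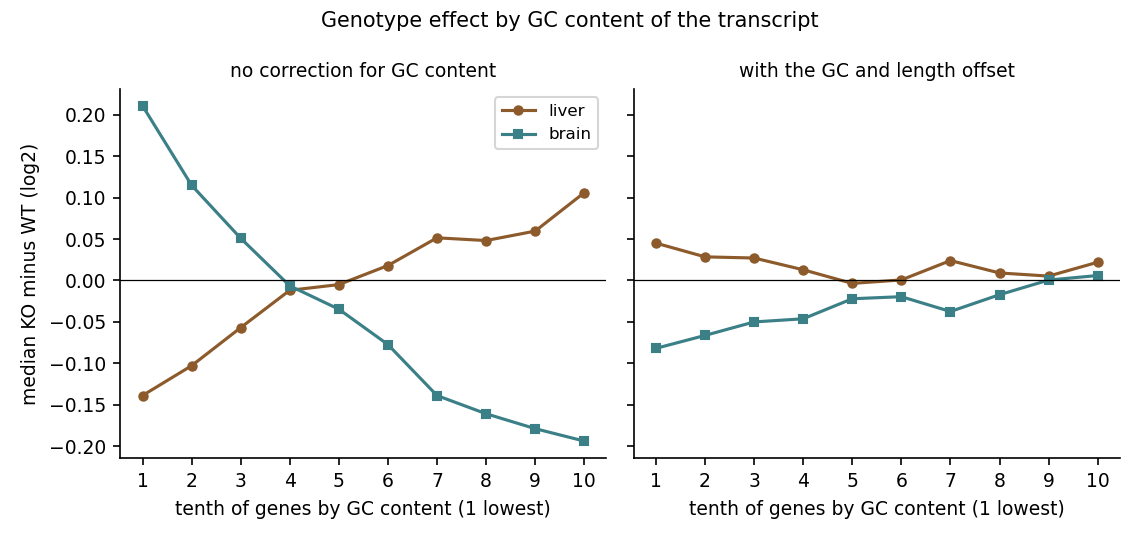
Genes tested in each tissue were split into deciles by the GC content of their longest transcript (about 1256 genes each, 1 lowest), and the median log2 fold change KO minus WT is drawn for liver (round) and brain (square). The lines cross between the fourth and the fifth decile without a correction and lie between -0.082 and 0.045 with the GC and length offset.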

How the data were processed

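Total RNA of liver and brain from 6 mice was sequenced in stranded libraries, made with a SMARTer kit for total RNA per the study's methods. Per the labels' processing notes, the authors used bcl2fastq, FastQC 0.11.5, Trimmomatic, STAR 2.7.3a and featureCounts on mm10, and deposited raw counts of reads per gene for the 12 libraries, with no normalisation. Whole numbers in the deposited counts were checked. The total count per library and the spread between the mice of a group limit the precision.

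Counts were fitted with edgeR 4.0.16 in R 4.3.3 (TMM, filterByExpr, robust quasi-likelihood F test, Benjamini-Hochberg over all genes tested, call at an adjusted p under 0.1). The difference between tissues was fitted over 12 libraries with mouse as a block. The mean effect was fitted over 4 groups, and each tissue on its own 6 libraries. The labels pair liver and brain by mouse. Over 12574 genes, the deviations of a mouse's libraries from their group means correlated between -0.039 and 0.141 (lowest for B, highest for F). Per the labels, libraries of a group come from separate mice. Standard errors come from the F statistic.

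Alternatives were RLE size factors, DESeq2 1.42.0, other filters, no mitochondrial genes, a covariate for Y-linked transcripts, an offset for GC content and length (splines with 5 degrees of freedom per library), voom with a block (limma 3.58.1), no block, and each mouse left out. GC content is that of the longest GENCODE M21 transcript, which 55141 of 55487 genes have. Positions are those of mm10, and 54435 identifiers had the same start and end in that annotation. Coding sequences are the longest annotated ones of a gene. The linker motif was searched in frame on the coding strand.

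Genes were named by a rule: Mettl5, Ssb and the mitochondrial rRNAs; up to 12 called genes per direction with the smallest p, tested in each tissue and without overlap of the paired differences; up to 6 genes per direction without overlap in either tissue and with equal signs; up to 3 members of each gene list by p, with every called member; and up to 6 genes per direction by the mean effect. Gene lists, rule and comparisons were chosen with earlier results of these data known, so they are not independent support.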

Additional observations from a re-analysis of the deposited data

Results flagged for a closer look

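The test of the difference itself flagged 68 genes whose genotype effect was not the same in liver and in brain, 64 with a lower and 4 with a higher effect in liver (edgeR, Benjamini-Hochberg, adjusted p under 0.1). Groups of 3 libraries are too small for the check on single outlying samples. Values below are liver effect minus brain effect on the log2 scale.

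Outside the zinc finger genes, 44 genes had a negative difference. The 13 named by the rule were Ssb (-1.97), mt-Rnr2 (-2.59), Ighm (-2.57), Gcc2 (-2.36), Cep290 (-2.15), Mphosph10 (-2.15), Cep83 (-1.96), Cops2 (-1.78), Nol8 (-1.68), Cacybp (-1.65), Hsp90aa1 (-1.65), Meis2 (-1.53) and Eif2s2 (-1.27). The other 31 ran from -3.85 to -1.16. Positive differences were flagged for Dnaic1 (3.53), Phlda1 (2.12), Itpka (1.83) and Stap2 (1.68).

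Among the zinc finger genes, those on chromosome 17 were Zfp758 (-3.28), Zfp994 (-3.13), Zfp942 (-2.67), Zfp943 (-2.67), Zfp946 (-2.19), Zfp944 (-2.14), Zfp955a (-2.03), Zfp955b (-1.83) and Zfp945 (-1.74). On chromosome 13 were Zfp729b (-3.30), Zfp759 (-2.52) and Zfp458 (-2.10). The others were Zfp518a (-2.75) and Zfp950 (-1.77) on chromosome 19, Zfp930 (-2.46) and Zfp958 (-2.29) on chromosome 8, Zfp970 (-2.36), Zfp386 (-1.83), Zfp62 (-1.77) and Zfp638 (-1.31).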

How the results depend on the processing

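The 68 calls of the difference between tissues became 190 with DESeq2, 270 with no filter on low counts, 135 over genes passing the filter in each tissue, 114 with the Y-linked covariate, 0 with the GC and length offset and 0 with no replicate block, that is without the pairing by mouse, and ran from 0 to 71 when each mouse was left out. The 68 were all among the calls with RLE size factors (88), DESeq2, no filter and the Y-linked covariate. The 3 calls of the mean effect became 55 with DESeq2, 39 with no filter, 5 with the Y-linked covariate, 8 with the GC and length offset and 5 with voom and mouse as a block, and ran from 0 to 6 when each mouse was left out. The 151 genes of opposite direction became 300 with no filter and 20 at an unadjusted p under 0.01, and ran from 64 to 186 over the mice left out. The 21 genes of equal direction became 82 with no filter, 38 with the covariate, 36 with the offset and 4 at an unadjusted p under 0.01, and ran from 13 to 51. The cause of these changes was not tested.

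Among the recomputed differences of single genes, 2141 kept their direction and their side of the threshold, 231 were no longer called, 60 became called and 20 changed sign, 0 of these in a called gene. With the offset the sign changed for Atrnl1 (-0.070), Atxn1 (-0.081), Cox7c (0.18), Map2 (-0.067), Psmc6 (0.17) and mt-Nd1 (0.0082). Atrnl1 also changed with RLE size factors (-0.00019), and over genes passing the filter in each tissue (-0.023), and Sirt3 with no filter (0.0059). Over the mice left out, values ran from -0.082 to 0.10 for Atrnl1 (other sign without C or E), from -0.12 to 0.36 for Bend7 (D or E), from -0.14 to 0.40 for Map2 (A, D or F), from -0.63 to 0.18 for Rec8 (B or F), from -1.30 to 0.23 for Rgs9 (E) and from -0.12 to 0.048 for Sirt3 (A). Of the recomputed list medians, 589 moved by less than the spread between mice and 19 by more. Library totals limit genes of a few counts, such as Dnaic1 in liver.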

Other observations

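Small structured RNAs had positive medians in KO brain. Of 41 small nucleolar RNAs tested in each tissue, which guide modification of rRNA, 37 were positive in brain (median 0.83) and 25 in liver (median 0.12), and of 51 tested 0 differences were called, beside 0.359% of all genes, with 2 at an unadjusted p under 0.05 (8.36% of all genes). All 9 RNA polymerase III transcripts and small nuclear RNAs were positive in brain (median 0.79) and 7 were negative in liver (median -0.12). Mitochondrial tRNAs had medians of 1.28 in brain and 0.12 in liver. The brain medians moved most with KO mouse A: without it those of the 3 lists were 0.16, 0.29 and 0.28. Without WT mouse B they were higher, at 1.27, 1.26 and 1.95. The liver medians over the mice left out ran from 0.026 to 0.33, from -0.36 to 0.059 and from -0.23 to 0.27, and that of the second list turned positive without mouse A and was lowest without F.

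Immune lists did not share a direction. Of 30 interferon-stimulated genes, 27 were negative in liver (median -0.30) and 16 in brain (median -0.089). Their signs in brain varied: Trim30a, a restriction factor, had 0.94 there and Stat2, a factor of interferon signalling, had -0.88. Genes of major histocompatibility class I and II had medians of 0.028 in liver, where 8 of 13 were positive, and -0.24 in brain, where 9 were negative. Over the mice left out, their medians ran from -0.23 to 0.25 (liver) and -0.40 to -0.015 (brain). Macrophage and microglia markers had medians of -0.30 in liver and 0.059 in brain, and P2ry12, a receptor of microglia, had the smallest p of that list, with a difference of -1.88 (SE 0.47, edgeR adjusted p 0.246). P2ry12 had at most 30 counts in any liver library. Immediate early genes were positive in liver for 15 of 23 and negative in brain for 14. The liver median of 0.19 was -0.16 without mouse A. Among them Myc had 2.10 in liver and -0.34 in brain (difference 2.18, SE 0.55, edgeR adjusted p 0.249), and in KO liver it was at 29.4 CPM in mouse A against 5.28 and 10.5 CPM in mice C and F. No difference of these 4 lists was called, beside 0.359% of all genes, and 7 of 38, 0 of 16, 1 of 24 and 4 of 29 in the order given had an unadjusted p under 0.05 (8.36% of all genes). When each mouse was left out, the medians of interferon-stimulated genes ran from -0.54 to -0.16 (liver) and -0.18 to 0.091 (brain), and those of macrophage and microglia markers from -0.66 to -0.086 and from -0.054 to 0.16.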
